A study of Homo sapiens with 6 samples.

Results

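The 10 genes described here encode small heat shock proteins and the BAG cochaperones of HSP70: HSPB1, CRYAB, HSPB8 and HSPB11, and BAG1, BAG2, BAG3, BAG4, BAG5 and BAG6. They were chosen by symbol, by a rule that uses no expression value but was set with earlier results of these data known, and make up 10 of the 29982 gene symbols in the deposited expression table. All 10 passed the filter on low values, a mean of at least 1 FPKM over the 6 libraries, which left 13287 genes. RNA was measured in OVCAR5, an established human ovarian cancer cell line, and every group shares this line. Vehicle-treated cells (DMSO) gave 2 libraries, cells given 10 μM SpiD7 for 2 h gave 2, and cells given the same dose for 6 h and for 12 h gave 1 each. SpiD7 is a spirocyclic dimer carrying groups that react covalently with cysteines, and the study asked whether it activates the unfolded protein response, the reaction of cells to misfolded protein in the endoplasmic reticulum. The labels give no duration for the vehicle and do not say whether replicates came from separate cultures, so that p-values measure only the spread between these libraries.

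Small heat shock proteins are chaperones that work without ATP. They assemble into oligomers through a shared alpha-crystallin domain and hold unfolding clients in a state from which HSP70 can refold them. BAG proteins bind the ATPase domain of HSP70 through a BAG domain and speed its release of nucleotide and client, each BAG protein steering HSP70 toward a different fate. BAG3 also binds HSPB8 and other small heat shock proteins, and the BAG3, HSPB8 and HSP70 complex passes clients to selective autophagy. HSF1, the main transcription factor of the heat shock response, is known to drive HSPB1, CRYAB and BAG3. By contrast, HSPB11, also called IFT25, belongs to the intraflagellar transport machinery of cilia and lacks the chaperone role of its namesakes. BAG6 lies in a complex that guards newly made membrane proteins and does not act like the other BAG proteins.

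Of the 6 libraries, the first DMSO and the first 2 h library and the 6 h and 12 h libraries are given directly as FPKM, a read density corrected for transcript length and library size. The second DMSO and second 2 h libraries were recovered from the authors' group means, as set out under the processing, and are called the recovered libraries. The deposited values do not give the read count of each library, and no counting error was computed. The steps between low values put the depth of the other libraries at 0.769 to 1.11 times that of the first DMSO library. A single gene, the microRNA gene MIR6723, took 9.19% and 25.0% of the summed FPKM in the first and the recovered DMSO library and 8.64% and 21.8% in the first and the recovered 2 h library. It took 6.93% in the 12 h library, and in the 6 h library LOC102723551 was the highest gene, at 9.585%. The part of MIR6723 in the values of the 10 genes was not tested. For 9 of the 10 genes the recovered library lay on the same side of the first library in DMSO and at 2 h, as it did for 83.9% of all genes tested. HSPB1, CRYAB, HSPB8, HSPB11 and BAG6 were higher in both recovered libraries, BAG1, BAG2, BAG4 and BAG5 were lower in both, and BAG3 was the exception. Of 9 epithelial and ovarian carcinoma markers, 7 had a mean of at least 1 FPKM, and all 9 summed to between 2962 and 4243 FPKM per library. The keratin genes KRT8 and KRT18 made up most of this sum. PAX8 had only 1.64 to 2.12 FPKM, and MUC16 and WT1 were under 1 FPKM. Markers of other cells were lower, with sums of 3.25 to 7.12 FPKM for fibroblasts and 22.7 to 37.3 for immune cells (CD68 made up most of it, and CD3E was listed at 0). The sums were 0.441 to 11.5 FPKM for endothelium and 0.315 to 2.36 FPKM for muscle. PECAM1 had 10.7 and 7.74 FPKM in the recovered DMSO and 2 h libraries, against 0.320 to 0.961 FPKM in the directly given libraries. DES had 2.11 and 2.33 FPKM in the recovered libraries and 0.216 to 0.758 FPKM in the directly given ones. The cause of this split was not tested.

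In DMSO, HSPB1 was the most highly expressed of the 10 genes, with a mean of 215.6 FPKM, a scale that is relative to transcript length. HSPB11 (58.1 FPKM) and BAG6 (56.9 FPKM) followed, and their libraries overlapped. BAG3 (34.3 FPKM) overlapped BAG2 (25.2 FPKM). BAG5 (11.02 FPKM), BAG1 (10.5 FPKM) and HSPB8 (5.70 FPKM) formed a chain in which each overlapped its neighbour. BAG4 (3.71 FPKM) lay inside the range of HSPB8, and CRYAB (2.39 FPKM) stood below BAG4 with no overlap. HSPB1 kept the first place in every library. BAG3 moved from the fourth place in both DMSO libraries to the second in all 4 SpiD7 libraries. HSPB8 stood in places 9 and 7 in DMSO and in place 5 at 12 h.

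SpiD7 libraries were compared with the mean of both DMSO libraries on the scale log2(FPKM + 0.1). At 2 h, BAG3 and HSPB8 were more than 2-fold higher, 2 of the 10 genes against 2.32% of all genes tested. At 6 h the same 2 genes were past this line, where 5.66% of all genes were. At 12 h the count was 5 of 10, with HSPB1, CRYAB and BAG1 added, against 6.48% of all genes. None of the 10 was more than 2-fold lower at any time, where 0.662%, 3.1% and 3.76% of all genes were. The stricter rule of lying more than 2-fold above each DMSO library was met by BAG3 alone at 2 h (0.587% of all genes), by BAG3 and HSPB8 at 6 h (3.21%) and by BAG3, HSPB8, HSPB1 and CRYAB at 12 h (3.88%). The median difference of the 10 genes was 0.10 after 2 h, 0.37 after 6 h and 0.75 after 12 h on the log2 scale, beside −0.01, 0.03 and −0.05 for all genes tested.

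The looser rule of lying above both DMSO libraries held for 2 of the 10 genes after 2 h, 6 after 6 h and 6 after 12 h, where 13.7%, 31.6% and 30.1% of all genes did so. A single gene lay below both DMSO libraries at each time, CRYAB at 2 h and BAG6 at 6 h and 12 h, beside 8.1%, 29.2% and 35.6% of all genes. The limma test, with Benjamini-Hochberg adjustment over all 13287 genes and an adjusted p under 0.05 with more than a 2-fold difference as its call, called 0 of the 10 at each time. It called 0.0226% of all genes after 2 h, 0.294% after 6 h and 0.339% after 12 h. At an unadjusted limma p under 0.05 there were 1, 2 and 4 of the 10 at 2 h, 6 h and 12 h, against 2.84%, 5.55% and 9.19% of all genes. In bulk RNA, more transcript per cell and more cells that express a gene cannot be told apart. The single 6 h and 12 h libraries were taken in this test to vary as the DMSO and 2 h libraries do, an assumption the data cannot check. The differences below are therefore sizes to read against the libraries, not changes that passed a test across genes.

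**Figure D1:**
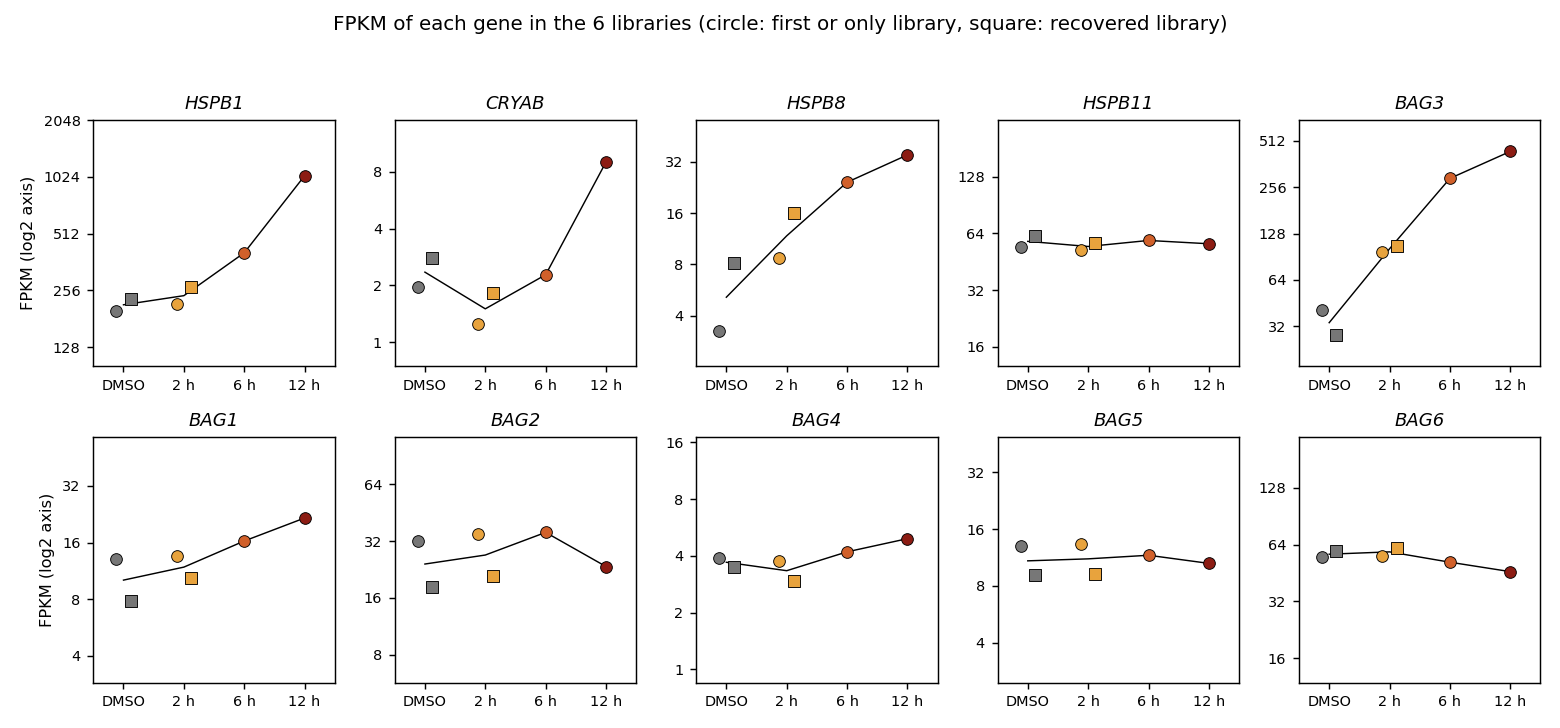
FPKM of each gene in the 6 libraries on log2 axes that span at least the same ratio in every panel, with circles for the first or only library, squares for the recovered library, and a line through the geometric mean of each group. BAG3, HSPB8 and HSPB1 reach 437.7, 35.03 and 1040 FPKM at 12 h, CRYAB is lowest at 2 h and highest, at 9.03 FPKM, at 12 h, and HSPB11 stays between 52.0 and 61.8 FPKM.

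BAG3, the cochaperone that couples HSP70 to small heat shock proteins and to autophagy, differed most from DMSO among the 10 genes at every time. It lies at chr10:119651370-119677819 on the plus strand (GRCh38, GENCODE v29). Its level was 40.5 FPKM in the first and 28.0 FPKM in the recovered DMSO library, 97.2 and 106.8 FPKM in the first and recovered 2 h libraries, 292.3 FPKM at 6 h and 437.7 FPKM at 12 h. The lower of the 2 h libraries exceeded the higher DMSO library, and each later library lay above all earlier ones. The difference to DMSO was 1.59 ± 0.26 after 2 h, 3.11 ± 0.31 after 6 h and 3.70 ± 0.31 after 12 h (log2, SE from limma), or 3.02-fold, 8.65-fold and 12.96-fold. The adjusted limma p was 1 after 2 h, 0.221 after 6 h and 0.143 after 12 h, the lowest among the 10 genes at 6 h and 12 h. Against each DMSO library on its own, BAG3 at 12 h was 10.8-fold and 15.6-fold higher. Among all genes tested BAG3 ranked 160 after 2 h, 106 after 6 h and 99 after 12 h by size of the increase. Most of the difference was present by 6 h, since 12 h stood 1.497-fold above 6 h.

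HSPB8, the small heat shock protein that partners BAG3, was the other gene above both DMSO libraries at all 3 times. It lies at chr12:119178642-119221131 on the plus strand. Its FPKM was 3.24 and 8.16 in the first and recovered DMSO library, 8.68 and 16.0 after 2 h, 24.2 after 6 h and 35.03 after 12 h. The groups did not overlap, but the gap at 2 h was narrow, since the lower 2 h library stood just above the higher DMSO library. HSPB8 was also the only one of the 10 genes whose DMSO libraries were more than 2-fold apart (2.47-fold), as they were for 13.5% of all genes. The difference to DMSO was 1.18 ± 0.61 after 2 h, 2.21 ± 0.75 after 6 h and 2.74 ± 0.75 after 12 h (log2, SE), or 2.26-fold, 4.63-fold and 6.68-fold, with adjusted limma p of 1, 0.901 and 0.497. Within the first libraries the 2 h value was 2.63-fold the DMSO value, and within the recovered libraries 1.94-fold. Its place past the 2-fold line at 2 h rested on 2 of the 4 libraries, since the log2 difference was 0.52 when the first DMSO library was left out and 0.74 when the recovered 2 h library was. At 12 h it was 10.5-fold above the first and 4.25-fold above the recovered DMSO library, so that the choice of DMSO library moved the size of this difference by more than that of BAG3.

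The pair of BAG3 and HSPB8 kept a ratio that showed no steady trend. BAG3 FPKM over HSPB8 FPKM was 12.5 and 3.44 in the first and recovered DMSO library, 11.2 and 6.69 after 2 h, 12.1 after 6 h and 12.5 after 12 h. The 3 directly given libraries of treated cells lay close to the first DMSO library, while both recovered libraries had lower ratios.

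HSPB1 encodes HSP27, the most widely expressed small heat shock protein, which is phosphorylated under stress and also protects the actin cytoskeleton. It lies at chr7:76302544-76304295 on the plus strand. Its FPKM was 200.3 and 230.9 in the first and recovered DMSO library, 217.3 and 265.7 after 2 h, 405.6 after 6 h and 1040 after 12 h. At 2 h the libraries overlapped those of DMSO, and at 6 h and 12 h they lay above both. The difference to DMSO was 0.16 ± 0.20 after 2 h, 0.92 ± 0.25 after 6 h and 2.27 ± 0.25 after 12 h (log2, SE), or 4.83-fold at 12 h, with adjusted limma p of 1, 0.764 and 0.239. Unlike BAG3, HSPB1 was further apart between 6 h and 12 h, at 2.56-fold, than between DMSO and 6 h, at 1.89-fold. At 12 h HSPB1 differed from the DMSO mean by more FPKM than any other of the 10 genes. It made up 97.5% and 95.5% of the summed FPKM of HSPB1, CRYAB and HSPB8 in DMSO and 95.9% at 12 h. That sum was 205.5 FPKM in the first DMSO library and 1084 FPKM at 12 h.

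CRYAB encodes alpha-B crystallin, a lens protein that serves as a stress chaperone in muscle, heart and many tumours. It lies at chr11:111908565-111923722 on the minus strand. Its FPKM was 1.97 and 2.81 in the first and recovered DMSO library, 1.24 and 1.82 after 2 h, 2.28 after 6 h and 9.03 after 12 h. CRYAB took its own course, with both 2 h libraries below both DMSO libraries, the 6 h library between the DMSO libraries and the 12 h library above every other. The difference to DMSO was −0.61 ± 0.31 after 2 h, −0.05 ± 0.38 after 6 h and 1.90 ± 0.38 after 12 h (log2, SE), with adjusted limma p of 1, 0.997 and 0.464, and the 12 h value was 3.72-fold that of DMSO. Both 2 h libraries were alike, 0.650 and 0.658 times their DMSO counterparts. The step from 6 h to 12 h, 3.84-fold, exceeded that of any other of the 10 genes. Of the exonic bases of CRYAB in the GENCODE v29 model, 20.6% are shared with HSPB2 on the other strand. No source states that the libraries keep strand. The locus deposited for CRYAB is much shorter than this model, from base 111908625 to base 111911749. Whether the deposited values hold any of the shared bases was not tested. HSPB2 itself had 0.967 and 2.74 FPKM in DMSO, 0.729 and 2.70 FPKM after 2 h, 0.334 FPKM after 6 h and 1.25 FPKM after 12 h, so that its 12 h library lay between the DMSO libraries.

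HSPB11, the intraflagellar transport protein, lies at chr1:53916574-53945929 on the minus strand. Its FPKM was 54.3 and 61.8 in the first and recovered DMSO library, 52.0 and 57.0 after 2 h, 58.6 after 6 h and 56.3 after 12 h. Every SpiD7 group overlapped DMSO. The differences were −0.09 ± 0.17, 0.02 ± 0.21 and −0.04 ± 0.21 (log2, SE) at 2 h, 6 h and 12 h, with an adjusted limma p of 0.973 at 12 h. Scaling by the upper quartile, which moved the median of all genes at 12 h from −0.05 to 0.11, moved HSPB11 to 0.12 and so turned its sign, as it did for BAG2 and BAG5 at 12 h and for CRYAB at 6 h.

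Among the other BAG genes, BAG1 showed the clearest difference. BAG1 is the founding BAG protein, an exchange factor that links HSP70 to the proteasome and binds BCL2, and it lies at chr9:33247820-33264720 on the minus strand. Its FPKM was 13.1 and 7.79 in the first and recovered DMSO library, 13.6 and 10.4 after 2 h, 16.3 after 6 h and 21.6 after 12 h. The 2 h libraries overlapped DMSO, while the 6 h and 12 h libraries lay above both DMSO libraries. The difference was 0.23 ± 0.35, 0.68 ± 0.43 and 1.09 ± 0.43 (log2, SE) at the 3 times, with an adjusted limma p of 0.590 at 12 h. Its place past the 2-fold line at 12 h rested on the recovered DMSO library, since BAG1 was 2.75-fold above that library and 1.64-fold above the first.

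BAG2, an inhibitor of the ubiquitin ligase CHIP (STUB1), lies at chr6:57172326-57189833 on the plus strand. It had 32.1 and 18.3 FPKM in DMSO, 34.96 and 20.9 FPKM after 2 h, 35.6 FPKM after 6 h and 23.5 FPKM after 12 h. It lay above both DMSO libraries at 6 h only, by 0.56 ± 0.54 (log2, SE), and at 12 h it lay between them. In the GENCODE v29 model BAG2 shares 42.7% of its exonic bases with RAB23 on the other strand. The locus deposited for BAG2 begins further upstream, at base 57090009, and so spans neighbouring genes. It ends at base 57185215, before the end of the GENCODE model. Whether the deposited values hold any of the bases shared with RAB23 was not tested.

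BAG4, also called SODD, which binds the cytoplasmic tail of the TNF receptor, was low throughout. Its FPKM was 3.90 and 3.51 in DMSO, 3.78 and 2.95 after 2 h, 4.20 after 6 h and 4.94 after 12 h, above both DMSO libraries at 6 h and 12 h by 0.18 ± 0.25 and 0.41 ± 0.25 (log2, SE). BAG5, which carries several BAG domains and is known to inhibit parkin, lies at chr14:103556544-103562831 on the minus strand. It had 12.96 and 9.08 FPKM in DMSO, 13.3 and 9.28 FPKM after 2 h, 11.6 FPKM after 6 h and 10.5 FPKM after 12 h, and overlapped DMSO at every time.

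BAG6, at chr6:31639028-31652705 on the minus strand, was the only BAG gene below both DMSO libraries at the later times. Its FPKM was 54.9 and 58.9 in DMSO, 55.7 and 61.5 after 2 h, 51.6 after 6 h and 45.9 after 12 h. The difference at 12 h was −0.31 ± 0.20 (log2, SE), with an adjusted limma p of 0.724, and it was −0.14 with upper-quartile scaling. BAG6 has 7 rows in the table, 6 of them on alternate contigs and all of these at 0, so that the sum equals the main row.

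**Figure D2:**
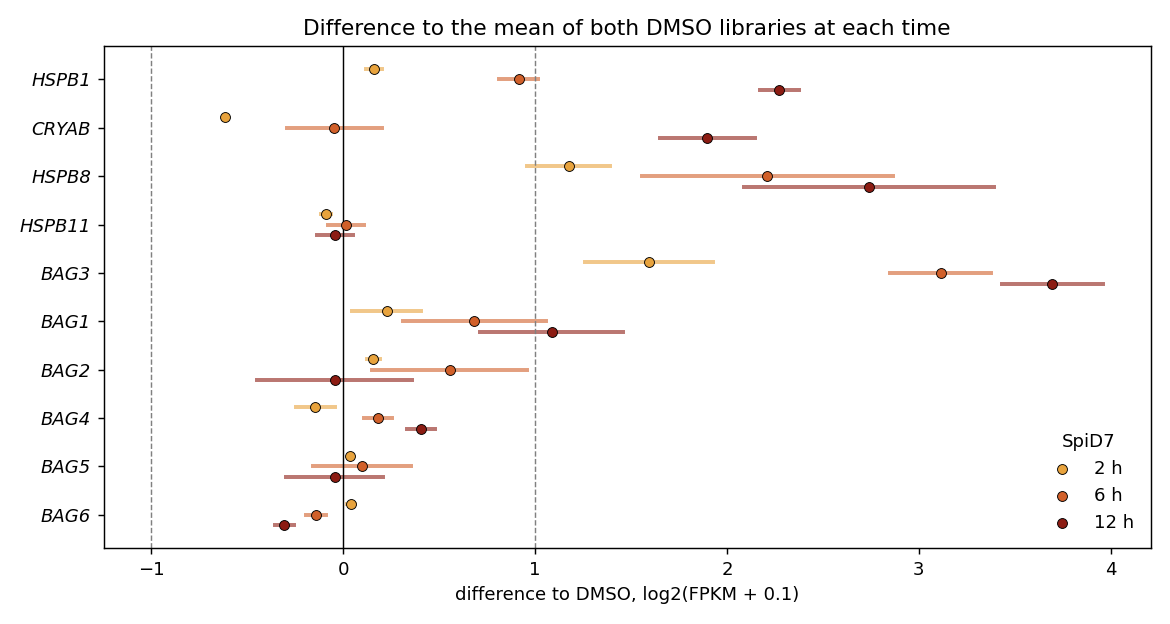
Difference to the mean of both DMSO libraries on the log2(FPKM + 0.1) scale for each gene at 2 h, 6 h and 12 h (points), with dashed lines at 2-fold. Bars span the 2 library-by-library differences (first against first and recovered against recovered at 2 h, the single library against each DMSO library at 6 h and 12 h), and at 12 h the bars of BAG3, HSPB8, HSPB1 and CRYAB lie wholly beyond the 2-fold line while that of BAG1 crosses it.

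At 6 h and 12 h most of the summed BAG expression was BAG3. BAG3 made up 25.7% and 22.3% of the summed FPKM of the 6 BAG genes in the first and recovered DMSO library, 44.5% and 50.4% after 2 h, 71.0% after 6 h and 80.4% after 12 h. The sum itself was 157.4 and 125.6 FPKM in DMSO, 218.5 and 211.7 FPKM after 2 h, 411.6 FPKM after 6 h and 544.1 FPKM after 12 h. Without BAG3, the other five BAG genes summed to 117.0 and 97.5 FPKM in DMSO, 121.3 and 105.0 FPKM after 2 h, 119.3 FPKM after 6 h and 106.5 FPKM after 12 h. All 6 libraries thus stayed within 97.5 to 121.3 FPKM on this measure, and the 12 h library lay between the DMSO libraries.

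BAG3 and BAG1 are often set against each other, since they send HSP70 clients to autophagy and to the proteasome respectively. BAG3 FPKM over BAG1 FPKM was 3.09 and 3.60 in DMSO, 7.17 and 10.3 after 2 h, 17.9 after 6 h and 20.3 after 12 h. The groups did not overlap on this ratio, and the ratio was largest at 12 h even though BAG1 was also at its highest there. BAG6 made up 34.9% and 46.9% of the BAG sum in DMSO and 8.44% at 12 h.

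**Figure D3:**
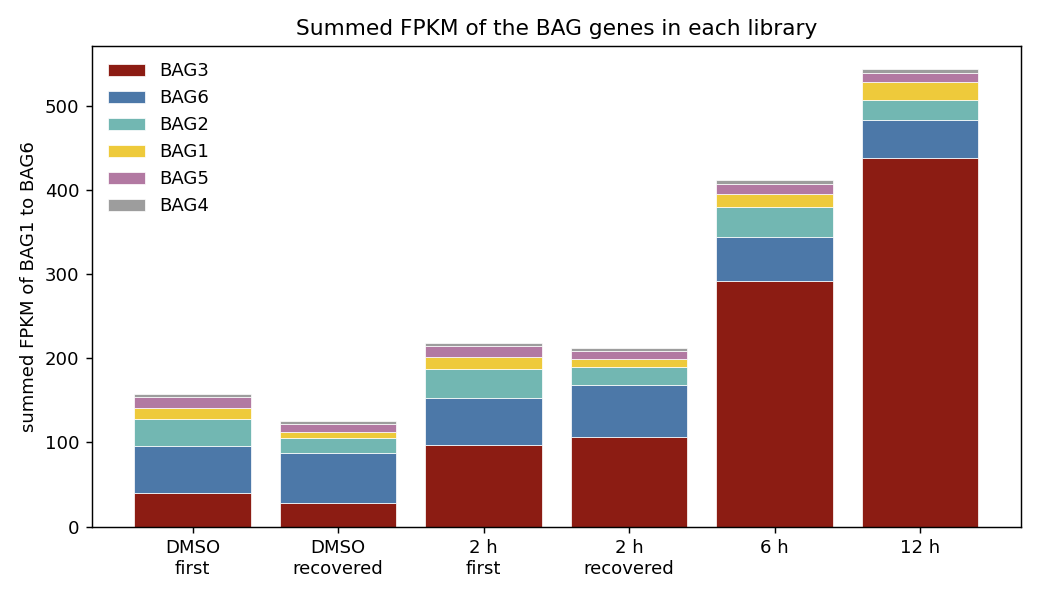
Summed FPKM of BAG1 to BAG6 in each of the 6 libraries, stacked by gene. The BAG3 segment grows from 40.5 and 28.0 FPKM in DMSO to 437.7 FPKM at 12 h while the rest of the bar stays between 97.5 and 121.3 FPKM.

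A stepwise order, with the 2 h mean above both DMSO libraries, 6 h above both 2 h libraries and 12 h above 6 h, was seen in 3 of the 10 genes (BAG3, HSPB8 and HSPB1) and in 3.39% of all genes tested. The pattern of CRYAB, with both 2 h libraries below and the 12 h library above both DMSO libraries, occurred in 1.73% of all genes. The 12 h library differed from the 2 h libraries by 2.51 ± 0.38 for CRYAB (log2, SE), which gave an adjusted limma p of 0.619.

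**Figure D4:**
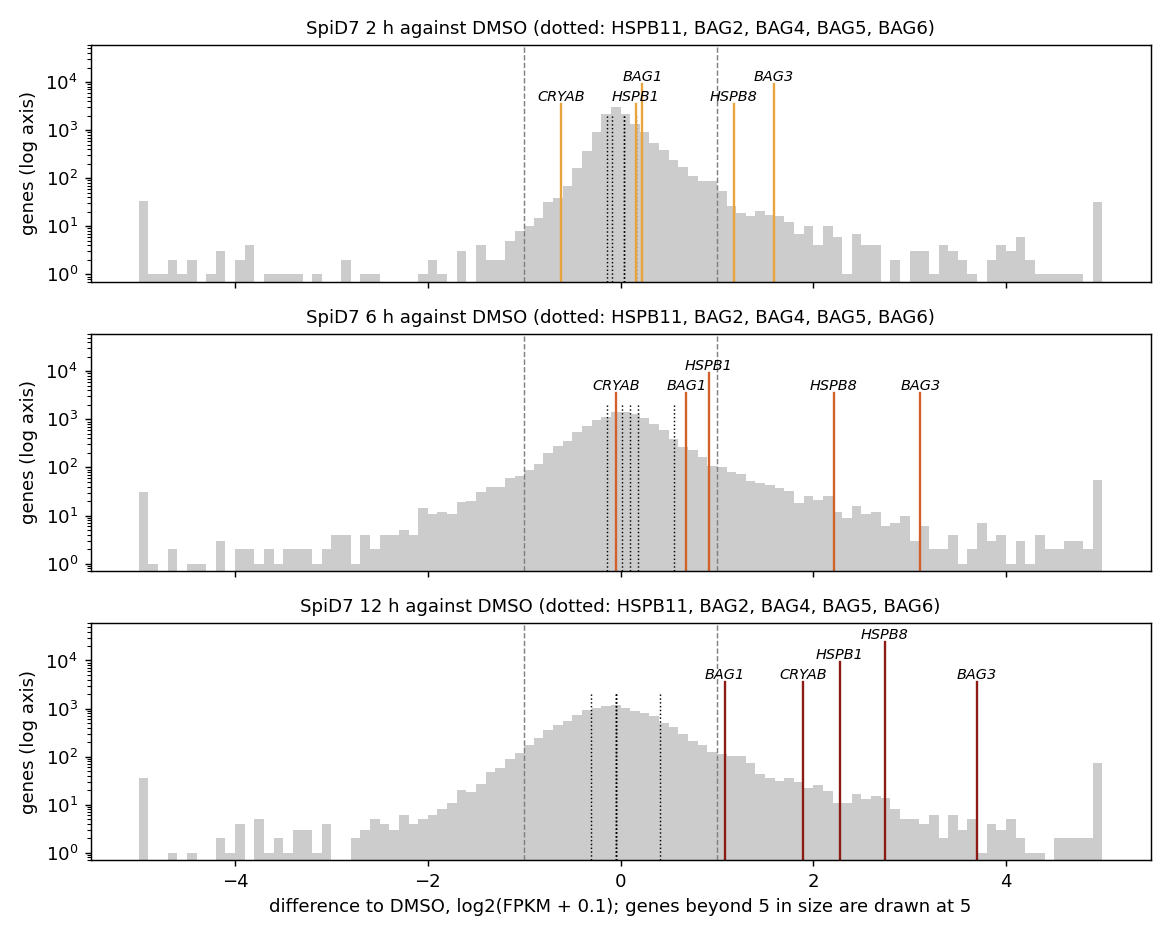
Number of genes (log axis) by difference to DMSO on the log2(FPKM + 0.1) scale for all 13287 genes tested at 2 h, 6 h and 12 h, with solid lines for 5 named genes, dotted lines for the other five and dashed lines at 2-fold. BAG3 and HSPB8 stand out on the right at each time, CRYAB moves from −0.61 at 2 h to 1.90 at 12 h, and the dotted genes stay between −0.31 and 0.56.

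HSF1 binds inverted repeats of a short unit with the core GAA, so the promoters of the 10 genes were searched for them. RefSeq promoters (GRCh38.p14, 250 bases before to 50 after a gene start) were at hand for 7 of the 10 genes, all but CRYAB, HSPB11 and BAG4. A pair of facing units, GAANNTTC or TTCNNGAA on either strand, occurred in HSPB1, HSPB8 and BAG2, 3 of the 7, beside 13.5% of 35116 promoters. A gene counted if any promoter listed for it matched, while this share is over single promoters, so the units differ. The 3-unit form, in which a further unit follows after 2 unspecified bases and which contains the 2-unit form, occurred in 0 of the 7, beside 0.490% of all promoters. BAG3, which differed most from DMSO, and BAG1 held neither form in this window. Both stood above both DMSO libraries at 6 h and 12 h, as HSPB1 and HSPB8 did, while BAG2 did so at 6 h only. The matches in HSPB1, HSPB8 and BAG2 are printed with the matching bases in capitals and HSPA1A, a classic heat shock gene, for comparison.
HSPB1 (chr7:76302480-76302509, plus strand, match from base −182): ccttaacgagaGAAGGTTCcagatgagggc
HSPB8 (chr12:119178832-119178861, plus strand, match from base −88): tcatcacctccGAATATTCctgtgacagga
HSPB8 (chr12:119178924-119178953, plus strand, match from base 5): aggagccagaaGAAGTTTCtaggcgcgcgt
BAG2 (chr6:57172191-57172220, plus strand, match from base −124): tcgaccgatagGAACCTTCgcgtgggggga
HSPA1A (chr6:31815426-31815455, plus strand, match from base −106): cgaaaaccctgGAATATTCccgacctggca
The 8 matching letters of the upstream HSPB8 site and of HSPA1A are the same, GAATATTC. HSPA8, DNAJB1 and HSPH1 were also searched for comparison. HSPA8 and DNAJB1 held several matches, none of them GAATATTC, and HSPA8 held the 3-unit form as well. No match was found for HSPH1. The upstream HSPB8 match lies inside the GENCODE v29 extent of the gene, which begins before the RefSeq start. The window covers part of each promoter, and a match of letters does not show that HSF1 binds there.

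The genes that work with BAG3 and HSPB8 in chaperone-assisted autophagy were read beside them. Of 12 such genes, 11 passed the filter. The numbers more than 2-fold higher than DMSO were 3 after 2 h, 6 after 6 h and 6 after 12 h, with 0 lower by this rule. Of all genes tested, 2.32%, 5.66% and 6.48% were this much higher, and their shares at an unadjusted limma p are given above. The median difference of the 11 genes was 0.35, 1.11 and 1.32 (log2) at the 3 times. None was called by limma, the lowest adjusted p at 12 h being 0.0565, and 6 of the 11 had an unadjusted limma p under 0.05 at 12 h. HSPA1B and HSPA1A, which encode inducible HSP70, were the highest at 12 h, with HSPA1B at 34.2 and 25.2 FPKM in DMSO, 373.3 and 483.9 FPKM after 2 h, 1049 FPKM after 6 h and 1172 FPKM after 12 h. They are near-identical copies, so that the split of reads between them is uncertain. STUB1, the ligase CHIP that marks clients of this complex with ubiquitin, was the lowest, at 74.7 and 53.0 FPKM in DMSO, 63.9 and 52.0 FPKM after 2 h, 61.2 FPKM after 6 h and 48.7 FPKM after 12 h.

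FLNC, the actin crosslinker filamin C and a client of the BAG3 complex in muscle, was, like SQSTM1, chosen from this list after the values were seen. It had 4.64 and 3.42 FPKM in DMSO, 4.76 and 5.45 FPKM after 2 h, 27.6 FPKM after 6 h and 43.1 FPKM after 12 h. FLNC was above both DMSO libraries at every time, but at 2 h only narrowly, by 4.76 against 4.64 FPKM. Its difference at 12 h of 3.40 ± 0.29 (log2, SE) was near that of BAG3. SQSTM1, the autophagy receptor p62, had 197.9 and 574.9 FPKM in the first and recovered DMSO library and 243.8 and 588.8 FPKM after 2 h. It had 315.0 FPKM after 6 h and 608.9 FPKM after 12 h. The directly given libraries were thus higher at each later time, while the 6 h library lay between the DMSO libraries. The DMSO libraries of SQSTM1 were so far apart that the size of any difference depended on which of them was used.

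Exchange factors that are not BAG proteins were compared, since they do the same step of the HSP70 cycle. Of 5 such genes, 1 was more than 2-fold higher after 2 h (2.32% of all genes), 2 after 6 h (5.66%) and 3 after 12 h (6.48%). Their median difference was 1.08 (log2) at 12 h. Limma called 0 of them, and 3 had an unadjusted limma p under 0.05 at 12 h. HSPH1, which encodes the large chaperone HSP110, was highest, at 104.2 and 50.6 FPKM in DMSO, 225.7 and 228.8 FPKM after 2 h, 569.5 FPKM after 6 h and 687.2 FPKM after 12 h, above both DMSO libraries throughout. SIL1, which acts on the endoplasmic reticulum chaperone BiP, was lowest, at 26.5 and 32.5 FPKM in DMSO, 23.4 and 25.6 FPKM after 2 h, 26.8 FPKM after 6 h and 21.5 FPKM after 12 h.

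The partners of BAG6 and HSPB11 held no gene more than 2-fold higher. Of 8 genes of the BAG6 complex and tail-anchored protein insertion, 0 were more than 2-fold higher or lower at any time, with a median of 0.16 (log2) at 12 h, between CAMLG, the insertion receptor, at 0.70 and its partner WRB at −0.74. Of 15 intraflagellar transport B genes, 14 were found and passed the filter. At 12 h 12 of these 14 were lower than the DMSO mean, and 10 lay below both DMSO libraries, as 35.6% of all genes did. The median of the 14 was −0.59 (log2) beside −0.05 for all genes, from IFT172 at −0.92 to IFT20 at 0.64. At 6 h, 2 of the 14 were more than 2-fold lower, beside 3.1% of all genes. HSPB11 at −0.04 thus lay above the median of its complex. None of these genes was called by limma, the lowest adjusted p being 0.470 for the transport genes and 0.496 for the BAG6 complex at 12 h, where 4 and 1 of them had an unadjusted limma p under 0.05.

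Genes that act upstream of the chaperones were read as well, and limma called 0 of them. Of the heat shock factors HSF1, HSF2 and HSF4, 0 were 2-fold apart from DMSO, and HSF1 had 52.0 and 44.2 FPKM in DMSO and 45.2 FPKM at 12 h. HSF4 was the lowest of them, at −0.35 (log2) at 12 h. Of 6 kinases of the p38 pathway that leads to HSPB1 phosphorylation, MAP2K3 alone was more than 2-fold higher at 12 h, with 35.2 and 38.0 FPKM in DMSO, 38.0 and 37.7 FPKM after 2 h, 72.2 FPKM after 6 h and 109.4 FPKM after 12 h. MAPK14, which encodes p38 alpha, was the lowest of the 6 at −0.69 (log2) at 12 h, and 2 of the 6 had an unadjusted limma p under 0.05. At 6 h, MAP2K6 was more than 2-fold lower, at 0.454 FPKM against 1.14 and 3.01 FPKM in DMSO. Its 12 h library, at 1.99 FPKM, lay between the DMSO libraries. Of 6 clients and targets of BAG proteins, 4 passed the filter and 0 were 2-fold apart, from TNFRSF1A at −0.57 to PINK1 at 0.58 (log2) at 12 h.

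Of 7 other small heat shock protein genes, HSPB2 alone passed the filter. CRYAA, HSPB3 and ODF1 were listed at 0 in all 6 libraries, and HSPB6 and HSPB7 stayed under 1 FPKM. HSPB9, a testis gene, was listed at 0 in DMSO and at 2 h and had 0.297 FPKM at 6 h and 0.348 FPKM at 12 h. The summed small heat shock protein signal of these cells therefore came from HSPB1, with HSPB8 and CRYAB far below.

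**Figure D5:**
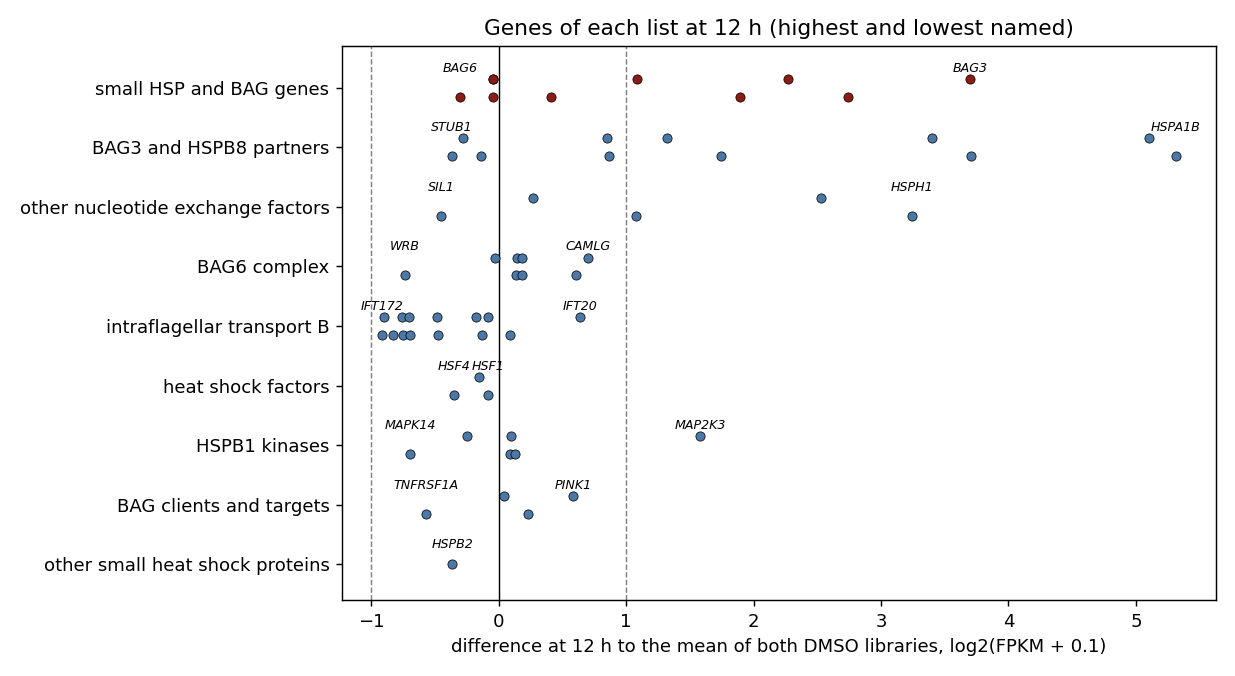
Difference at 12 h to the mean of both DMSO libraries on the log2(FPKM + 0.1) scale for the 10 genes (red) and for the genes of each compared list that passed the filter (blue), with the highest and lowest gene of each list named and dashed lines at 2-fold. The partners of BAG3 and HSPB8 reach 5.31 (HSPA1B), while the genes of the BAG6 complex and of intraflagellar transport stay between −0.92 and 0.70.

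For the 5 genes more than 2-fold higher at 12 h, genes with the nearest course were found by the Euclidean distance between their 6 library values on the log2 scale after each gene's DMSO mean was subtracted, among 9569 genes with a mean of at least 5 FPKM. The nearest to BAG3 was HSPH1 (distance 0.609), followed by CLU (0.749), which encodes the secreted chaperone clusterin, and SESN2 (1.02). The nearest to HSPB1 was SERPINH1 (0.389), the collagen chaperone HSP47, with 183.3 and 181.6 FPKM in DMSO, 202.3 and 230.0 FPKM after 2 h, 390.1 FPKM after 6 h and 728.6 FPKM after 12 h. FAM210A (0.580) and METTL7B (0.590) came next. Nearest to BAG1 were C10orf2 (0.249), ZNF777 (0.271) and STIP1 (0.279), the HSP70 and HSP90 organizing protein.

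HSPB8 was nearest to CYP4F11 (0.619), DNAJB9 (0.684), an endoplasmic reticulum cochaperone of BiP, and HMGCS1 (0.795), an enzyme of cholesterol synthesis. Among the genes compared, those nearest to CRYAB were PTGES (0.855), SDF2L1 (0.953) and RHOF (0.963). These distances were larger than those listed for HSPB1, HSPB8 and BAG1. For BAG3, HSPH1 (0.609) and CLU (0.749) were nearer and SESN2 (1.02) was further. CRYAB itself had a mean of 3.19 FPKM, below the minimum of 5 FPKM for the genes compared. Genes at its own level were therefore not searched, and whether any had a closer course was not tested. All distances between genes rest on 6 libraries, of which 2 were recovered, and carry no test.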

How the data were processed

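RNA of OVCAR5 cells was sequenced in 6 libraries. By the paper's methods and the submitters' processing notes, reads were trimmed with Trim Galore, aligned with TopHat2 2.0.8 and quantified with Cufflinks and Cuffdiff 2.1.1. The methods name a mouse build, but the deposited loci are human (hg38). The authors deposited FPKM for both sides of 4 comparisons. Their fold changes, p-values and q-values were not used, and 0 sample columns were left out. Each comparison had its own scale, so 6 h and 12 h values were brought to the first through the shared DMSO library (factors 0.972 and 0.994).

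The columns named for replicate 2 were never at 0 where the first library was above 0 (0 of 18195 rows for DMSO, 0 of 18722 for 2 h) and had a sharp lower limit at a fixed share of it. They were read as group means, and replicate 2 was recovered by subtracting that share (0.526 for DMSO, 0.509 for 2 h, from 811 and 965 rows at the limit). The sources used here do not state this, and it was chosen after the data were seen.

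Rows of the same symbol were summed (33085 rows, 29982 symbols). Genes below a mean of 1 FPKM were left out, and log2(FPKM + 0.1) was fitted with limma 3.58.1 in R 4.3.3, with 1 coefficient per group and no block. The fit was tested on simulated data. A fold on this scale understates the change of low genes. Text was written for all 10 genes and, from each list, the highest and lowest gene at 12 h. Some other genes of the lists, among them FLNC, SQSTM1 and MAP2K6, were added outside this rule. The genes and lists were chosen with earlier results of these data known. Counts and figures were made with pandas 2.3.3 and matplotlib 3.10.9. The fit was repeated with other pseudocounts, low-value filters and scalings, with the highest row of each symbol, an intensity trend, a replicate block, the deposited means and leaving out each library. The planned comparison of protein sequences was not made, since none were used here.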

Additional observations from a re-analysis of the deposited data

Results flagged for a closer look

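CRYAB differed in direction between times. Both 2 h libraries (1.24 and 1.82 FPKM) lay below both DMSO libraries (1.97 and 2.81 FPKM), and the single 12 h library (9.03 FPKM) lay above both. The 12 h library was 2.51 higher than the 2 h libraries on the log2 scale (SE 0.38), with a limma p of 0.0044 for this difference before adjustment and 0.619 after it. Of all 13287 genes, 230, or 1.73%, showed the same order of groups. In the GENCODE model CRYAB overlaps HSPB2 on the other strand, but the deposited CRYAB locus is much shorter than that model. The part of this overlap in the order of groups was not tested, and the 12 h library of HSPB2 lay between its DMSO libraries.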

How the results depend on the processing

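The numbers of the 10 genes more than 2-fold higher were 2, 2 and 5 at 2 h, 6 h and 12 h. Leaving out 1 library gave 1 to 2 at 2 h, 2 to 3 at 6 h and 4 to 5 at 12 h. HSPB8 at 2 h needed the first DMSO library and the recovered 2 h library, without either of which 1 gene remained. BAG1 at 12 h needed the recovered DMSO library. Without the recovered libraries, an alternative chosen after seeing the data, the counts were 2, 3 and 4. BAG3 at 12 h ranged from 3.43 to 3.96 (log2) over all alternatives, with adjusted p from 0.0807 to 0.575, and HSPB1 from 2.17 to 2.44, with adjusted p from 0.0914 to 0.828. Over all 10 genes, times and alternatives, 393 differences moved by less than 1 SD of the DMSO replicates and 11 by more. The 393 are no measure of stability. Several settings, such as the intensity trend and the replicate block, leave these differences unchanged. Leaving out 1 DMSO library cannot move a difference by more than this SD. HSPB8 at 2 h, which went from 1.18 to 0.52 without the first DMSO library, is thus among the 393. Among the 11 that moved by more, HSPB11 at 12 h turned to 0.12 with upper-quartile scaling. Without 1 of the 2 h libraries BAG4 turned to 0.03 and BAG6 to −0.03 at 2 h.

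Counts over all genes moved more. At 2 h limma called 3 genes, against 1 with pseudocount 1, 6 with 0.01, 0 without a filter, 1 with upper-quartile scaling, 1 with an intensity trend and 0 to 21 without 1 library. A fit blocked on replicate number (replicate block) called 0 genes, with 1874 at an unadjusted p under 0.05. Same-numbered libraries deviated together (correlation 0.369), but only by number and over 2 pairs. The lowest adjusted p of the 10 genes with the block was 0.329, for CRYAB, HSPB8 and BAG3. No block could be fitted at 6 h and 12 h. Genes more than 2-fold apart at 2 h numbered 396, against 247 with pseudocount 1, 1092 without a filter, 212 at a mean of at least 5 FPKM and 656 to 877 without 1 library. At 6 h limma called 39 genes, against 96 without a filter and 22 to 47 without 1 library, and 1164 genes were 2-fold apart, against 771, 2948, 572 and 966 to 2063 in the same order of settings. At 12 h it called 45 genes, against 263 without a filter and 26 to 51 without 1 library, and 1360 were 2-fold apart, against 869, 3395, 682 and 1360 to 1937. The cause of these shifts was not tested.

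The files give no read counts, no counting error was computed, and every recovered value rests on the reading of the replicate 2 columns as means. The 6 h and 12 h groups have 1 library each.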
